A study of Mus musculus with 24 samples.

Results

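Multipotent progenitors (MPP) of aged mice were compared with MPP of young mice by bulk RNA-seq, across all genes. The comparison uses 8 of the 24 libraries of the series, 4 from aged MPP and 4 from young MPP, chosen by the population and age in their labels. The donors were male C57BL/6 mice, a widely used inbred strain, 4 aged to 107 weeks and 4 aged 12 weeks, with no genetic change or treatment named. Bone marrow was enriched for cells carrying CD117 (Kit, the receptor for stem cell factor), and MPP were sorted as negative for lineage markers and CD150 and positive for Sca1, Kit and CD48. The other 16 libraries are long-term and short-term hematopoietic stem cells (LT-HSC and ST-HSC) of the same ages, used here for the spread of the counts and to set the age change in MPP beside theirs. The labels count mice but link no library to a mouse, so the p-values measure the spread between these libraries, some of which may be technical.

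MPP lie below the stem cells in the blood hierarchy. They divide more often, have little lasting self-renewal and feed the myeloid, lymphoid and erythroid lineages, and in aged marrow output is known to lean toward myeloid cells. The sort gate fixes surface markers and leaves the mixture of lineage-primed progenitors inside it free to vary, so in these bulk libraries fewer cells of a type and less RNA per cell cannot be told apart.

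The genes behind the sort were looked at first. Slamf1, which encodes CD150, averaged 0.564 ± 0.43 CPM (the count of a gene relative to its library, scaled for library size and composition) in aged MPP and 0.545 ± 0.637 CPM in young MPP (SD, n = 4 each here and below), against means of 72.1 CPM in LT-HSC of aged mice and 26.2 CPM in those of young mice. Cd48 averaged 90.2 ± 6.42 CPM in aged MPP and 66.4 ± 2.92 CPM in young MPP. Its log2 change of 0.44 did not pass the test (adjusted p = 0.379), although the 4 values of each age did not overlap and the change did pass in limma-voom (adjusted p = 0.00821) and in a fit of the 8 MPP libraries alone (0.0061), within a range of 0.0061 to 0.77 over all alternatives. Flt3 and Cd34, a cytokine receptor and a sialomucin of early progenitors, were at 496 ± 58.4 and 817 ± 47.0 CPM in aged MPP and at 485 ± 26.4 and 829 ± 8.17 CPM in young MPP. Kit was also within the spread, with a log2 change of -0.09 (adjusted p = 0.533). Ly6a, which encodes Sca1, was at 63.0, 109, 29.9 and 107 CPM in aged libraries 1 to 4 and at 23.3, 30.0, 24.1 and 43.3 CPM in young libraries 1 to 4. It was higher in aged MPP with overlapping values (log2 change 1.36 ± 0.31, SE; adjusted p = 0.00708), and lost the call when only the MPP libraries were fitted (adjusted p = 0.117, range over alternatives 6.7e-05 to 0.258).

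Aged MPP libraries held 10705210 to 11907421 counts and young MPP libraries 7480426 to 8784383. Of 14205 genes tested, 1391 changed with age at an adjusted p under 0.05 (9.79% called), 785 of them higher in aged MPP (5.53%) and 606 lower (4.27%). A change of at least 2-fold was seen in 338 of the higher and 157 of the lower genes. In 1164 of the called genes all 4 values of 1 age lay above all 4 of the other, as they did in 2340 of all tested genes (16.5%). Some libraries stood apart. Aged library 4 had the highest share of plasma cell, macrophage and granulocyte transcripts, young library 1 carried 347 CPM of the stromal chemokine Cxcl12, which was at most 4.75 CPM in the other MPP libraries, and young library 2 had the fewest transcripts of Mpo, a granule enzyme of myeloid progenitors. The count of changed genes was 914 without aged library 4 and 378 without all 3 of these libraries, which leaves 3 aged and 2 young MPP.

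**Figure D1:**
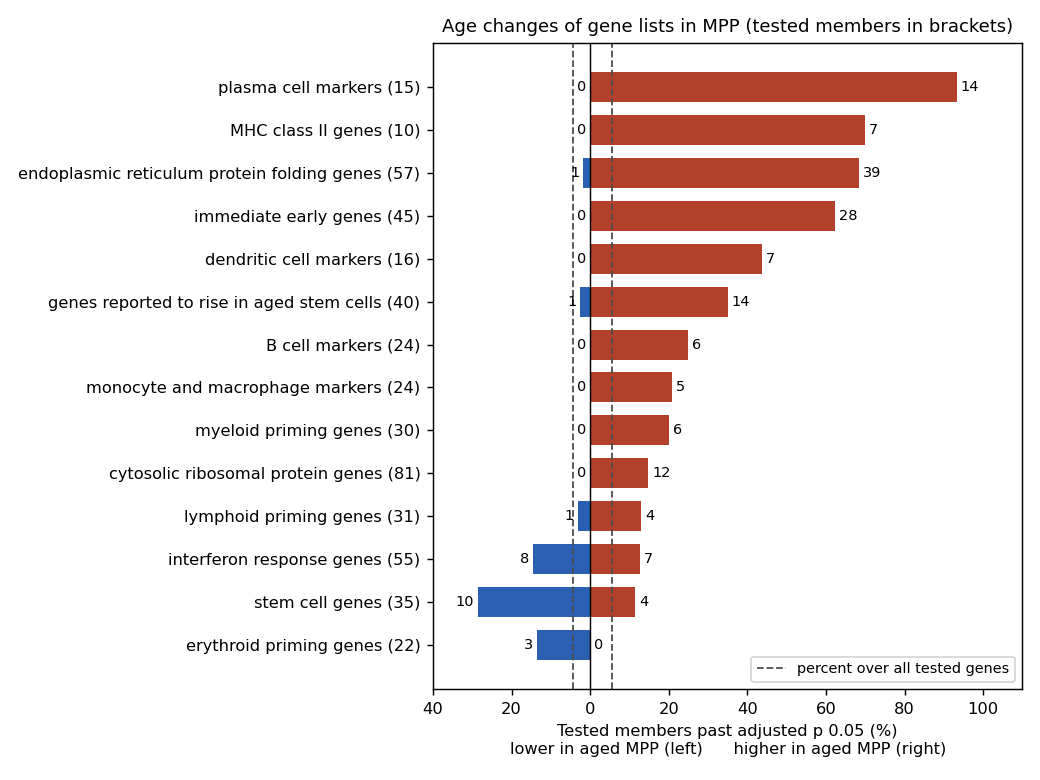
Percent of the tested members of each gene list that passed an adjusted p of 0.05 in MPP, higher in aged MPP to the right in red and lower to the left in blue, with the number of genes at the end of each bar; dashed lines mark the percent over all tested genes in each direction (5.53% and 4.27%). The plasma cell, MHC class II, endoplasmic reticulum and immediate early lists reach farthest to the right, and stem cell genes reach farthest to the left, with 10 members lower.

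The endoplasmic reticulum (ER) folds and modifies proteins bound for the cell surface and for secretion. When its load rises, the sensors Ern1 and Atf6 raise the transcription factor Xbp1 and with it chaperones, disulfide isomerases and the machinery that removes misfolded proteins. Of 57 tested ER protein folding genes, 39 rose in aged MPP and 1 fell, with a median log2 change of 0.50 against -0.0041 over all tested genes. The gene that fell was Crebzf, at 101 ± 7.97 CPM in aged MPP and 128 ± 11.5 CPM in young MPP. All of the folding genes together took 0.834% to 1.18% of the counts in aged MPP libraries and 0.605% to 0.725% in young ones. Without the 3 libraries that stood apart, 18 of the list rose and none fell.

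Txndc5, a protein disulfide isomerase, was at 337, 739, 340 and 651 CPM in aged libraries 1 to 4 and at 120, 98.1, 92.7 and 104 CPM in young libraries 1 to 4. Its log2 change was 2.32 ± 0.21 (SE; adjusted p = 5.9e-07), and even the lowest aged libraries, 1 and 3, stood well above all young ones. Xbp1, the transcription factor named above, was at 141, 236, 136 and 266 CPM in aged MPP and at 57.7, 46.3, 61.7 and 62.2 CPM in young MPP (log2 change 1.77 ± 0.17; adjusted p = 5.9e-07). Derl3, part of the channel that takes misfolded proteins out of the ER, was at 26.2, 56.8, 25.8 and 95.3 CPM in aged MPP and at 4.59, 6.34, 3.16 and 2.89 CPM in young MPP. Libraries 2 and 4 were the high ones among the aged in each of these genes. Sec61a1, the pore through which new proteins enter the ER, varied less, with 294, 309, 294 and 336 CPM in aged MPP and 222, 193, 204 and 201 CPM in young MPP (log2 change 0.59 ± 0.07; adjusted p = 2.76e-06). Of the central chaperones, Hspa5 was at 481 ± 64.0 CPM in aged MPP and 339 ± 56.5 CPM in young MPP and did not pass the test (adjusted p = 0.0604).

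Many promoters of this pathway carry the ER stress response element, CCAAT and CCACG with 9 bases between them, which the factors NF-Y and ATF6 are known to bind, or its variant, ATTGG and CCACG with 1 base between them. Both were searched on both strands in RefSeq promoter windows around the gene start (build GRCm38.p6). The element was found in 7 of the 28 genes of the list that rose and had a window, which is 25.0%, and in 37 of all 27025 genes with a window (0.137%). It was also in 2 of the 16 other tested members with a window, Hspa5 and Canx. The variant was found in Herpud1 and Dnajb11 among those that rose, and in 0.0444% of all genes with a window. A match of letters is a description and shows no binding. Windows of 4 of these genes are given because they hold the element in a gene that rose, with the matching bases in capitals, 5′ to 3′ on the gene's strand. In Derl3 and Creld2 the match is on the opposite strand, and in Hsp90b1 there is a match on each strand. They are Derl3 (chr10:75893148-75893447, plus strand), Creld2 (chr15:88819396-88819695, plus strand), Hsp90b1 (chr10:86705395-86705694, minus strand) and Herpud1 (chr8:94386179-94386478, plus strand).
Derl3: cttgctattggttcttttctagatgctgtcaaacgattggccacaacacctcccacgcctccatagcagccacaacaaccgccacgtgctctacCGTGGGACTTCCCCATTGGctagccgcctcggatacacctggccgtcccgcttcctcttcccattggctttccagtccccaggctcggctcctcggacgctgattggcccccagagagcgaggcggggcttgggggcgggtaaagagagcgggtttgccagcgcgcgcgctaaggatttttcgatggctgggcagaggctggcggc
Creld2: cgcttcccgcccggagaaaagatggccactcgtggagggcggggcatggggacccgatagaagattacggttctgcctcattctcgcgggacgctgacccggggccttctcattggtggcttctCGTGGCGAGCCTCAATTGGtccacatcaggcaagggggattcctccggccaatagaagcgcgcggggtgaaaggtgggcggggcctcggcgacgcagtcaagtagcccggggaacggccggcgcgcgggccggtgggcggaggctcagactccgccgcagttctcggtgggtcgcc
Hsp90b1: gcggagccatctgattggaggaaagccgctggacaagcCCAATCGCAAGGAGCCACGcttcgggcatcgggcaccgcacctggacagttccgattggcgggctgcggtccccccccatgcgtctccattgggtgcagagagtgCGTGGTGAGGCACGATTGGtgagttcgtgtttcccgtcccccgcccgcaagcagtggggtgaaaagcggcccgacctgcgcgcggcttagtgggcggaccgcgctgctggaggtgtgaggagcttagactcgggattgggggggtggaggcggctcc
Herpud1: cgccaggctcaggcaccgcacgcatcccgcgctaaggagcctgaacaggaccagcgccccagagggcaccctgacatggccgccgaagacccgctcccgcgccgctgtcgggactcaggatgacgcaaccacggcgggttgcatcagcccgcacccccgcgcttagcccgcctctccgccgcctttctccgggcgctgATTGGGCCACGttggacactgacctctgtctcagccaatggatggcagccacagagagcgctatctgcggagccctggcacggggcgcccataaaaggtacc
The 3 genes besides Derl3 were picked for these windows after their values were seen. Creld2, an ER-resident disulfide isomerase, was at 82.8 ± 38.6 CPM in aged MPP and 29.5 ± 5.56 CPM in young MPP (adjusted p = 0.000145). Herpud1, which helps to clear misfolded proteins, was at 340 ± 199 CPM in aged MPP and 110 ± 15.2 CPM in young MPP (adjusted p = 0.00094). Hsp90b1, the ER member of the HSP90 chaperones, was at 343 ± 126 CPM in aged MPP and 214 ± 22.9 CPM in young MPP (adjusted p = 0.00835). Herpud1 and Hsp90b1 lost the call when only MPP libraries were fitted (adjusted p = 0.078 and 0.13, with ranges over alternatives of 2.4e-07 to 0.163 and 0.000263 to 0.178).

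Plasma cells, which secrete antibody, use the same ER program at full scale, and their markers moved with it. Of the 27 plasma cell markers listed, 15 matched a gene in the table and 14 of these rose, with a median log2 change of 3.59. The other 12 symbols, 11 of them immunoglobulin genes and 1 an older name of Jchain, were not matched and are not analysed here. The 15 markers together took 0.319%, 0.516%, 0.269% and 1.06% of the counts in aged libraries 1 to 4 and 0.0354%, 0.0304%, 0.0323% and 0.0599% in young libraries 1 to 4. The groups did not overlap (exact permutation test, two-sided p = 0.0286, the smallest that 4 against 4 allows; 0.157 after Benjamini-Hochberg adjustment over 11 lists). Jchain, which joins antibody chains into polymers, made up 71.7% of the list in aged MPP. It was at 2324, 3289, 1794 and 9061 CPM in aged libraries 1 to 4 and at 0.689, 1.85, 0.243 and 284 CPM in young libraries 1 to 4. Young library 4 was the only young one with more than a trace, and all aged libraries lay above it.

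Jchain passed the test narrowly (log2 change 5.84 ± 1.71; adjusted p = 0.0364). It lost the call without aged library 2 or 4 (adjusted p = 0.0504 and 0.0847) or without young library 1, 2 or 3 (0.0807, 0.095 and 0.0865), and its log2 change was 12.14 without young library 4 (range of adjusted p over alternatives 0.0027 to 0.378). Leaving Jchain out, the other 14 markers took 0.0932% to 0.209% of the counts in aged MPP and 0.0302% to 0.0353% in young MPP. Slamf7, a surface receptor of plasma and other lymphoid cells, was at 32.0, 52.0, 36.6 and 75.7 CPM in aged MPP and at 2.07, 1.32, 2.07 and 3.86 CPM in young MPP (log2 change 4.39 ± 0.49; adjusted p = 6.34e-06). Irf4, a factor of plasma and dendritic cell differentiation picked after its values were seen, was at 118, 324, 64.5 and 205 CPM in aged MPP and at 8.84, 12.1, 6.33 and 4.22 CPM in young MPP (adjusted p = 0.000289). Txndc5, Xbp1, Derl3 and Edem1 belong to both the plasma cell and the ER list. Aged libraries 2 and 4, with the most plasma cell transcripts, were above aged libraries 1 and 3 in 19 of the 39 ER genes that rose. In 37 of the 39, libraries 1 and 3 were above every young library. The 39 were selected as called higher, and in 1164 of all 1391 called genes the ages did not overlap. That count asks for all 4 libraries of each age, in either direction, so it is not the matching share. Shares of all called genes with the library orders of the 19 and the 37 were not counted. Libraries 1 and 3 held plasma cell transcripts too. Jchain, which is not on the ER list, was at 2324 and 1794 CPM in them, against at most 284 CPM in young MPP. The markers other than Jchain took 0.0987% and 0.0932% of their counts, against 0.0302% to 0.0353% in young MPP. That share includes Txndc5, Xbp1, Derl3 and Edem1, so it partly counts the ER rise again. The 37 genes therefore cannot separate plasma cells from a rise in other cells. The part of plasma cells in the rise of the ER genes was not tested.  Without the 3 libraries that stood apart, 9 of the 15 plasma cell markers rose.

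**Figure D2:**
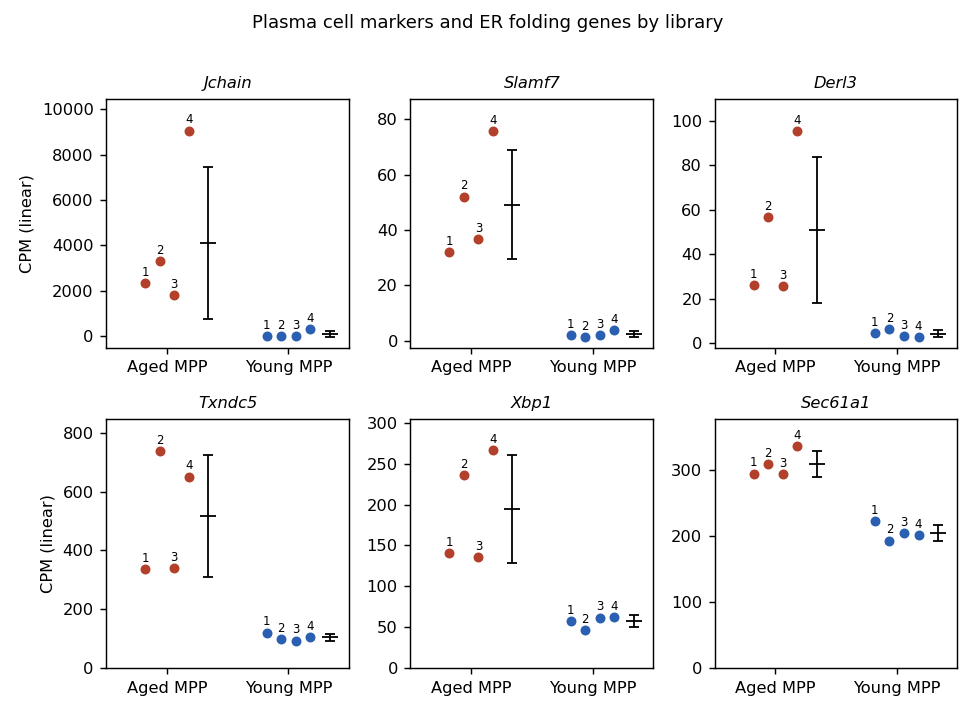
CPM on a linear scale in each MPP library (points, numbered by library) with the mean and SD beside them (black bars, n = 4), aged in red and young in blue, for the plasma cell markers Jchain and Slamf7 and the ER genes Derl3, Txndc5, Xbp1 and Sec61a1. In every panel all 4 aged points lie above all 4 young ones, and aged libraries 2 and 4 are the highest of the aged ones. The rule that named Jchain required its ages not to overlap, and the other genes were named by smallest p in their lists.

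MHC class II molecules present peptides to helper T cells, and transcription of their genes depends on the coactivator Ciita. Of 10 tested MHC class II genes, 7 rose in aged MPP and none fell, with a median log2 change of 1.91, and 7 or 8 were higher under every alternative. The list took 0.132%, 0.194%, 0.169% and 0.185% of the counts in aged libraries 1 to 4 and 0.0328%, 0.0432%, 0.0387% and 0.041% in young libraries 1 to 4. H2-Aa, an alpha chain, was at 166, 248, 230 and 205 CPM in aged MPP and at 11.4, 19.5, 20.0 and 15.7 CPM in young MPP (log2 change 3.68 ± 0.34; adjusted p = 1.09e-06). Its partner beta chain H2-Ab1 was at 151, 228, 221 and 169 CPM in aged MPP and at 20.4, 36.3, 30.9 and 24.0 CPM in young MPP (log2 change 2.79 ± 0.29; adjusted p = 3.39e-06). In H2-Aa and H2-Ab1 the aged libraries are close to each other, and aged library 4 does not lead. H2-Eb1, another beta chain, was at 102, 179, 165 and 111 CPM in aged MPP and at 4.25, 6.21, 9.98 and 10.7 CPM in young MPP (log2 change 4.16 ± 0.43; adjusted p = 4.65e-06). H2-DMb1, part of the peptide exchange factor, had a smaller change of 1.35 ± 0.17 in log2 (31.8 ± 4.10 CPM in aged MPP and 12.4 ± 2.17 CPM in young MPP; adjusted p = 5.05e-06). Cd74, the invariant chain that guards the peptide groove and a gene picked after its values were seen, was at 853 ± 251 CPM in aged MPP and 45.5 ± 22.8 CPM in young MPP (adjusted p = 1.08e-05). It varied more, at 580, 986, 715 and 1131 CPM in aged libraries 1 to 4. Aged libraries 2 and 4 were the highest in Cd74, as in the plasma cell markers. The 3 members that did not pass were H2-DMb2, H2-Oa and H2-Ob, with log2 changes of 1.48, 0.36 and -0.23. H2-Ob, a subunit that restrains peptide exchange, was at 108 ± 14.9 CPM in aged MPP and 127 ± 14.7 CPM in young MPP.

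Promoters of MHC class II genes are known for a Y box, CTGATTGG, bound by NF-Y. This motif, chosen for display after the values were seen, is in the windows of H2-Aa (chr17:34287774-34288073, minus strand) and H2-Eb1 (chr17:34305617-34305916, plus strand), of 4 genes that rose and had a window, in that of H2-Oa, of 3 that did not pass and had a window, and in 4.70% of all 27025 genes. Its last 5 letters, ATTGG, are also the reverse complement of the CCAAT of the ER element. The windows of H2-Aa and H2-Eb1 are printed with the motif in capitals.
H2-Aa: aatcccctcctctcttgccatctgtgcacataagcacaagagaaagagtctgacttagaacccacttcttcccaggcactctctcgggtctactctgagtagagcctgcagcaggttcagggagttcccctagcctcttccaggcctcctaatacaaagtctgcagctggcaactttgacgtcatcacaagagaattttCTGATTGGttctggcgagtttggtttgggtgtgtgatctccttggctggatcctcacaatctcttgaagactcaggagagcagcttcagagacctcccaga
H2-Eb1: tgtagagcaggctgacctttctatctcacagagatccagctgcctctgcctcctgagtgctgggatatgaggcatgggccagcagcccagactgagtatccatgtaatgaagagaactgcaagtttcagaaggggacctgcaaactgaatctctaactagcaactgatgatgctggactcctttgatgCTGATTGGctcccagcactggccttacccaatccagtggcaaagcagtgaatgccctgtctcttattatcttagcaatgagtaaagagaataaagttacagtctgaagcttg

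Dendritic cells and monocytes express MHC class II or arise from progenitors inside this gate, and some of their markers rose too. Of 16 tested dendritic cell markers 7 rose and none fell (median log2 change 1.44), although the summed share overlapped between ages, at 0.123% to 0.152% of counts in aged MPP and 0.117% to 0.127% in young MPP (exact permutation p = 0.0571). Of the list, 3 rose without the 3 libraries that stood apart. Irf8, a factor of dendritic cell and monocyte development, was at 203, 216, 192 and 141 CPM in aged MPP and at 96.5, 40.7, 44.5 and 42.8 CPM in young MPP (log2 change 1.74 ± 0.31; adjusted p = 0.000968). Young library 1 lay apart from the other young ones and still below every aged library. Clec9a, a receptor of cross-presenting dendritic cells, was at 12.8, 6.13, 17.1 and 4.02 CPM in aged MPP and was seen with 3 counts over the 4 young libraries. The ratio was 109 with a 95% counting interval of 37.2 to 533 (adjusted p = 0.000152), and the call was lost in limma-voom (adjusted p = 0.0522, range over alternatives 3e-09 to 0.0522). Without young library 1, which holds these 3 counts, the fitted log2 change was 9.55. Clec9a was higher in LT-HSC than in MPP, at means of 93.7 CPM in aged and 15.4 CPM in young mice. It rose with age in LT-HSC and ST-HSC too (log2 changes 2.60 and 2.33; adjusted p = 0.000662 and 0.0295). Tcf4, a factor of plasmacytoid dendritic cells, was at 270 ± 14.3 CPM in aged MPP and 215 ± 4.45 CPM in young MPP (log2 change 0.33 ± 0.07; adjusted p = 0.00198). Tcf4 also rose with age in LT-HSC (log2 change 0.54; adjusted p = 1.88e-06). Cd7 averaged 3.17 ± 2.47 CPM in aged MPP and 0.18 ± 0.209 CPM in young MPP (log2 change 4.03 ± 0.92; adjusted p = 0.0061), with a log2 change of 3.35 without aged library 4 and 5.08 without young library 4.

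Of 24 tested monocyte and macrophage markers 5 rose and none fell (9 and 0 in DESeq2), with a median log2 change of 2.00. They took 0.0767%, 0.0757%, 0.0826% and 0.157% of counts in aged libraries 1 to 4 and 0.0628%, 0.0395%, 0.0415% and 0.0463% in young libraries 1 to 4 (exact permutation p = 0.0286, adjusted 0.157 over 11 lists). Ctss, a lysosomal protease that trims the invariant chain, was at 66.8, 102, 42.7 and 120 CPM in aged MPP and at 18.7, 12.4, 17.4 and 16.5 CPM in young MPP (log2 change 2.35 ± 0.34; adjusted p = 0.000132). Klf4, a factor of monocyte differentiation, averaged 22.0 ± 6.53 CPM in aged MPP and 3.89 ± 2.62 CPM in young MPP (log2 change 2.49 ± 0.43; adjusted p = 0.000632). Klf4 is also counted among the immediate early genes that rose, described below. Fcgr4, an Fc receptor, was at 2.76, 6.76, 3.09 and 13.2 CPM in aged MPP, against 3 counts over the young libraries, a ratio of 70.4 with a 95% counting interval of 23.8 to 343 (adjusted p = 0.00969). It lost the call in limma-voom (adjusted p = 0.139, range over alternatives 0.00083 to 0.268), and its fitted log2 change was 5.33 without aged library 4 and 8.91 without young library 4. Ccr2, the receptor that draws monocytes from the marrow, was at 20.0 ± 3.77 CPM in aged MPP and 2.43 ± 4.07 CPM in young MPP (log2 change 3.02 ± 0.88; adjusted p = 0.0409). The young mean of Ccr2 rests on library 1 at 8.50 CPM, and the log2 change was 5.57 without it (adjusted p = 4.1e-05). The Ccr2 call was lost without any 1 aged library or without young library 3 or 4 (adjusted p = 0.068 to 0.10, range over all alternatives 2.3e-05 to 0.16). The macrophage complement genes C1qa and C1qb, at 41.2 and 72.1 CPM in aged library 4 and at most 4.03 and 8.99 CPM in every other MPP library, did not pass the test (adjusted p = 0.0971 and 0.0818). The list held 3 higher genes without aged library 4. In aged libraries 1 to 3, where C1qb was at most 8.99 CPM, H2-Aa was at 166 CPM or more, against at most 20.0 CPM in young MPP. C1qb is a macrophage gene and does not measure dendritic cells. Irf8, from the dendritic cell list, was at 192 CPM or more in the same libraries, against at most 96.5 CPM in young MPP. The part of mature dendritic cells or monocytes in the MHC class II rise was not tested.

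**Figure D3:**
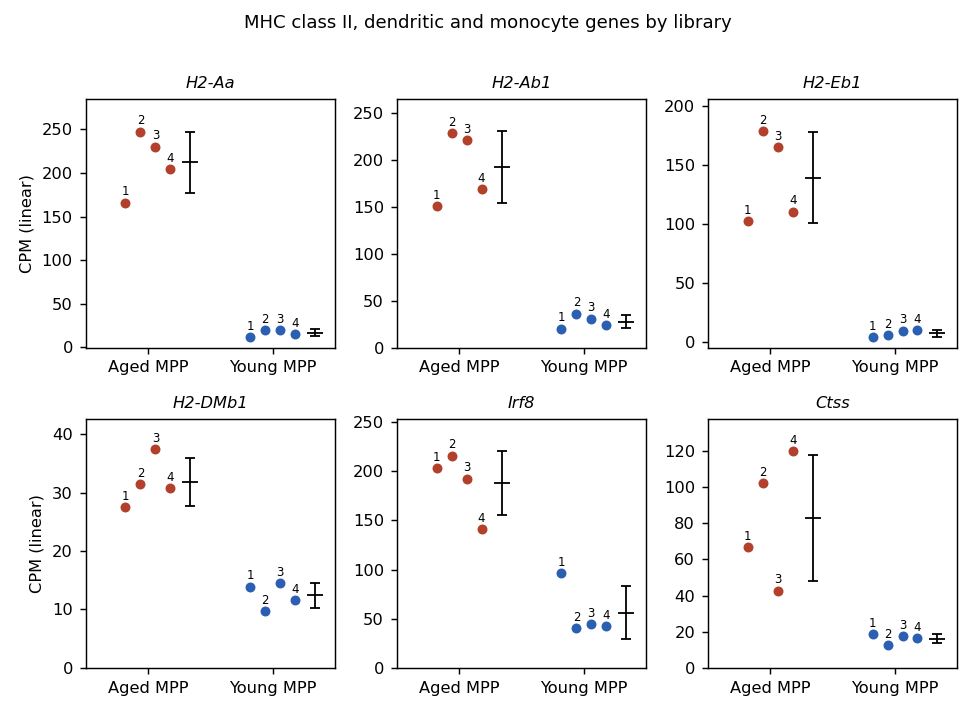
CPM on a linear scale in each MPP library (numbered points) with mean and SD (black bars, n = 4), aged in red and young in blue, for 4 MHC class II genes, Irf8 and Ctss. The H2 genes separate the ages with aged libraries of like height, while Ctss is highest in aged libraries 2 and 4.

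Immediate early genes are switched on within minutes of a signal, without new protein synthesis, and can also be raised by handling of cells. Of 45 tested, 28 rose in aged MPP and none fell (median log2 change 0.98), and 10 rose without the 3 libraries that stood apart. Trib1, a pseudokinase that steers C/EBP factors to degradation, was at 32.6, 61.8, 37.3 and 56.4 CPM in aged MPP and at 8.38, 6.87, 8.89 and 6.75 CPM in young MPP (log2 change 2.60 ± 0.21; adjusted p = 4.05e-09). Socs3, which damps cytokine receptor signaling, was at 64.4, 68.3, 42.2 and 65.8 CPM in aged MPP and at 4.13, 13.1, 8.89 and 14.9 CPM in young MPP (log2 change 2.56 ± 0.32; adjusted p = 2.13e-05). The ages did not overlap in either gene. Btg2, an antiproliferative factor, averaged 410 ± 61.0 CPM in aged MPP and 197 ± 26.5 CPM in young MPP (log2 change 1.06 ± 0.16; adjusted p = 0.000146). Ier3 averaged 89.2 ± 19.6 CPM in aged MPP and 39.9 ± 7.71 CPM in young MPP (log2 change 1.16 ± 0.18; adjusted p = 0.000193). Fos, a subunit of AP-1 picked after its values were seen, was at 1398, 1836, 1674 and 1644 CPM in aged MPP and at 349, 693, 668 and 636 CPM in young MPP (adjusted p = 0.00113). Cdkn1a, the p53-induced cell cycle inhibitor p21, also picked after its values were seen, averaged 53.5 ± 6.25 CPM in aged MPP and 14.9 ± 5.17 CPM in young MPP (log2 change 1.84 ± 0.25; adjusted p = 3.5e-05). The list rose by the same number of genes in LT-HSC (28, with 1 lower) and by 21 in ST-HSC. Calls in either direction took 18.9% of all tested genes in LT-HSC and 5.79% in ST-HSC. How long cells of each age were handled is not given in the sources used here.

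Stem cell genes mark the cells above MPP, and more of them were lower than higher in aged MPP. Of 35 tested, 10 fell and 4 rose, with a median log2 change of -0.30, and 8 to 11 were lower under every alternative. Hlf, a factor of stem cell self-renewal, was at 399, 334, 413 and 310 CPM in aged MPP and at 607, 769, 694 and 590 CPM in young MPP (log2 change -0.87 ± 0.10; adjusted p = 3.39e-06). Mycn, a MYC family factor, was at 17.4, 29.5, 18.5 and 17.2 CPM in aged MPP and at 48.6, 57.4, 48.0 and 56.3 CPM in young MPP (log2 change -1.35 ± 0.16; adjusted p = 3.76e-06). In these genes no library of either age crossed into the range of the other. Prdm16, a regulator of stem cell maintenance, averaged 14.0 ± 4.67 CPM in aged MPP and 34.5 ± 3.78 CPM in young MPP (log2 change -1.30 ± 0.16; adjusted p = 4.65e-06). Mecom, its paralog, picked after its values were seen, averaged 52.1 ± 6.32 CPM in aged MPP and 78.2 ± 9.79 CPM in young MPP (adjusted p = 0.000139). The 4 members that rose were Cdkn1a, Nr4a2, Ly6a and Egr1, of which Cdkn1a is an inhibitor of the cell cycle, Nr4a2 and Egr1 are early response genes and Ly6a encodes the sort antigen Sca1.

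**Figure D4:**
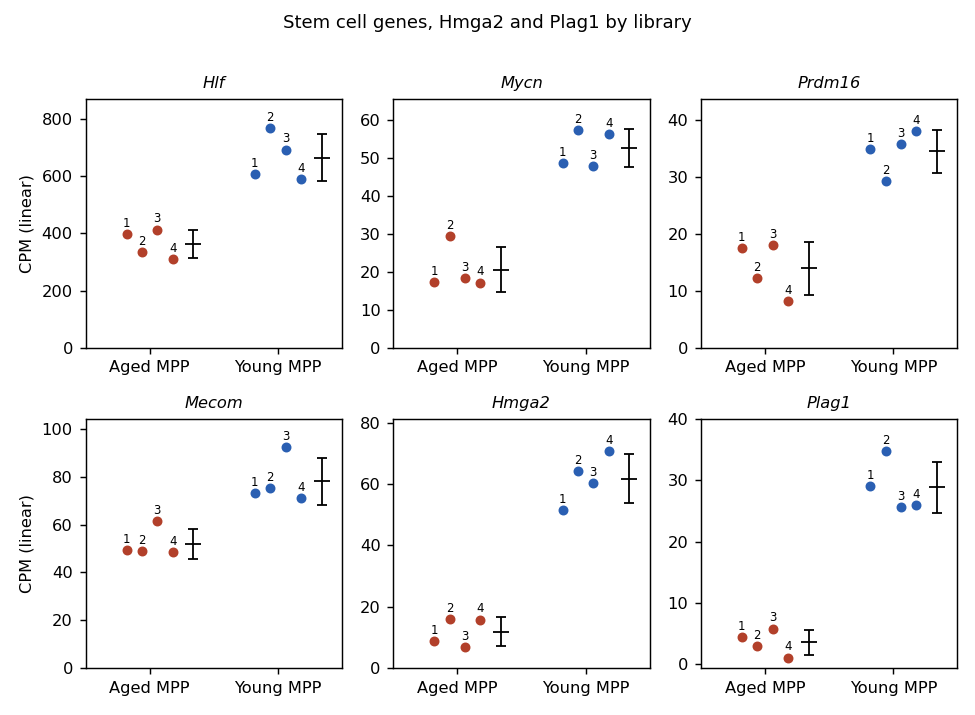
CPM on a linear scale in each MPP library (numbered points) with mean and SD (black bars, n = 4), aged in red and young in blue, for 4 stem cell genes and for Hmga2 and Plag1. In all 6 panels every aged point lies below every young one. The rule that named Hmga2 and Plag1 required this of them. Of the stem cell genes, Hlf, Mycn and Prdm16 were named by smallest p and Mecom after its values were seen.

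Plag1 and Hmga2 were among the 12 genes of largest decrease. Plag1, a zinc finger factor of fetal growth, was at 4.44, 2.93, 5.81 and 1.08 CPM in aged MPP and at 29.1, 34.7, 25.7 and 25.9 CPM in young MPP (log2 change -3.01 ± 0.29; adjusted p = 7.38e-07). Hmga2, a chromatin protein of fetal and young stem cells, was at 8.69, 15.8, 6.74 and 15.8 CPM in aged MPP and at 51.6, 64.3, 60.2 and 70.7 CPM in young MPP (log2 change -2.39 ± 0.28; adjusted p = 6.33e-06). Both kept the call under every alternative. The 10 other genes of largest decrease had log2 changes of -2.51 to -1.79. Plxdc2, a membrane protein, averaged 2.98 ± 2.19 CPM in aged MPP and 17.1 ± 6.12 CPM in young MPP, and Fstl1, a secreted glycoprotein, 1.61 ± 0.562 CPM in aged MPP and 8.59 ± 4.70 CPM in young MPP. Gucy1a3, a subunit of the nitric oxide receptor, averaged 5.01 ± 2.82 CPM in aged MPP and 25.7 ± 4.75 CPM in young MPP (adjusted p = 1.09e-06). Klf12, a zinc finger repressor, averaged 3.63 ± 1.69 CPM in aged MPP and 17.5 ± 2.33 CPM in young MPP (adjusted p = 2.25e-07). Fgd5, a guanine nucleotide exchange factor that marks stem cells, was at 21.5, 5.60, 15.3 and 8.43 CPM in aged MPP and at 43.4, 48.9, 42.8 and 40.6 CPM in young MPP (adjusted p = 0.000139). Slc35d3, a transporter known from platelet granules, averaged 9.22 ± 0.93 CPM in aged MPP and 37.0 ± 5.39 CPM in young MPP, and Aldoc, a glycolytic aldolase, 2.63 ± 1.34 CPM in aged MPP and 11.8 ± 3.31 CPM in young MPP. The remaining genes of the set were Obsl1, Pla2g4c and Ddx4, with log2 changes of -2.28, -2.27 and -1.89. Pla2g4c, a phospholipase, had 5.51 CPM in aged library 2 against 0.691 to 1.31 CPM in the other aged libraries, and its log2 change was -3.30 without that library.

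Genes known to rise in stem cells with age were tested in the progenitors as well. Of 40, 14 rose and 1 fell, with a median log2 change of 0.43, 8 rose without aged library 4 and 3 rose without the 3 libraries that stood apart. In LT-HSC 38 of the 40 rose (median log2 change 2.35) and in ST-HSC 17 rose (median 0.86). Over all tested genes 18.9% were called in LT-HSC and 5.79% in ST-HSC, in either direction. Bmpr1a, a receptor for bone morphogenetic proteins, was at 20.0, 15.4, 17.6 and 23.6 CPM in aged MPP and at 0.345, 0.396, 0.243 and 0.12 CPM in young MPP (log2 change 6.06 ± 0.45; adjusted p = 4.05e-09). It was called under every alternative. Clec1a, a lectin receptor, was at 7.80, 7.56, 16.9 and 7.45 CPM in aged MPP and at 0.345, 0, 0.487 and 0.602 CPM in young MPP (log2 change 4.71 ± 0.60; adjusted p = 3.83e-05). Itgb3, the beta subunit of the platelet fibrinogen receptor, averaged 55.1 ± 25.7 CPM in aged MPP and 18.0 ± 2.19 CPM in young MPP (log2 change 1.61 ± 0.29; adjusted p = 0.00141). Mmrn1, a platelet granule protein, was the member that fell, with 28.3 ± 6.59 CPM in aged MPP and 44.4 ± 3.68 CPM in young MPP (log2 change -0.65 ± 0.13; adjusted p = 0.00222).

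Of the 12 genes of largest increase, 11 were at 2.76 CPM or less in every young library, and Jchain was the exception, with 284 CPM in young library 4. Il2ra, the alpha chain of the interleukin-2 receptor, was at 1.97, 10.8, 3.47 and 39.4 CPM in aged libraries 1 to 4 and had no count in any young library, so it was at least 150-fold higher in aged MPP against a floor of 3 counts over the young group (adjusted p = 0.0135). Without aged library 4 the fitted log2 change was 8.64, against 10.01 with it. The call was lost in DESeq2 and in a fit of the MPP libraries alone (adjusted p = 0.0678 and 0.148, range over alternatives 0.00031 to 0.148). The set held Cacna1h, Cacna1e and Cacna1s, which encode subunits of voltage-gated calcium channels, and channel genes were not tallied as a list. Cacna1h was at 77.8, 133, 50.3 and 131 CPM in aged MPP, and in young MPP only library 4 had counts, at 1.81 CPM (log2 change 7.71 ± 1.02; adjusted p = 0.000448). Its fitted log2 change was 12.83 without young library 4. Cacna1e was at 71.8, 105, 28.7 and 94.1 CPM in aged MPP and at 2.76, 0, 0 and 2.05 CPM in young MPP (log2 change 5.91 ± 1.00; adjusted p = 0.00133), and at 6.72 in log2 without young library 1. Cacna1s was at 6.02, 14.8, 8.34 and 17.4 CPM in aged MPP, against 2 counts over the young libraries, a ratio of 191 with a 95% counting interval of 52.7 to 1584 (adjusted p = 4.67e-05). Without young library 4 its fitted log2 change was 9.75. In all 3 channel genes, as in the plasma cell markers, aged libraries 2 and 4 were higher than 1 and 3.

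Chst1, a sulfotransferase, was at 19.9, 63.2, 27.4 and 65.6 CPM in aged MPP and had counts only in library 4 of young MPP, at 2.29 CPM (log2 change 6.22 ± 1.16; adjusted p = 0.00291). Without young library 4 its fitted log2 change was 11.67. Prlr, the prolactin receptor, was at 4.44, 20.4, 6.28 and 22.5 CPM in aged MPP and had counts only in library 3 of young MPP, at 0.487 CPM (log2 change 6.63 ± 1.08; adjusted p = 0.00103; 9.96 without young library 3). Both lost the call in DESeq2 (adjusted p = 0.116 and 0.222), as did Cacna1h (0.07), and over all alternatives the adjusted p of Chst1, Prlr and Cacna1h reached at most 0.122, 0.222 and 0.07. Adam19, a membrane metalloprotease, was at 6.22, 6.76, 13.7 and 35.5 CPM in aged MPP and at 0, 0, 0.365 and 0.12 CPM in young MPP (log2 change 6.84 ± 1.10; adjusted p = 0.000594), with a log2 change of 6.04 without aged library 4 and 8.17 without young library 3. Bhlhe41, a repressor of the clock family that B-1a cells express, was at 11.8, 14.6, 4.68 and 14.0 CPM in aged MPP and at 0.23, 0, 0.122 and 0.602 CPM in young MPP (log2 change 5.46 ± 0.77; adjusted p = 3.25e-05; 6.39 without young library 4). Fcrla, an Fc receptor-like protein of B cells, averaged 30.4 ± 13.2 CPM in aged MPP and 0.272 ± 0.318 CPM in young MPP (log2 change 6.72 ± 1.24; adjusted p = 0.00242; 7.43 without young library 4). B cell markers were not all higher: 6 of 24 tested rose and none fell, with a median log2 change of -0.11. The 6 were Fcrla, Tnfrsf13c, Cd79b, Ms4a1, Ly6d and Fcmr. In limma-voom 7 rose and 6 fell, and without the 3 libraries that stood apart none rose and none fell. Their summed share was 0.0235% to 0.0481% of counts in aged MPP and 0.0228% to 0.0423% in young MPP (exact permutation p = 0.886). Pax5, which defines B cells, was at 3.04 ± 3.59 CPM in aged MPP and at 8.69 ± 5.77 CPM in young MPP and did not pass the test. Tnfrsf13c, the BAFF receptor, averaged 18.1 ± 5.14 CPM in aged MPP and 7.61 ± 0.94 CPM in young MPP (adjusted p = 0.00576), and Ms4a1, which encodes CD20, 5.29 ± 3.62 CPM in aged MPP and 0.242 ± 0.296 CPM in young MPP (adjusted p = 0.00946). Ms4a1 lost the call in DESeq2 (adjusted p = 0.399, range over alternatives 0.000819 to 0.399), and its log2 change was 5.29 without young library 4, against 4.37 with it.

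Lineage priming, the low expression of lineage genes before commitment, shifted unevenly. Of 30 myeloid priming genes 6 rose and none fell (median log2 change 0.87), and 3 rose without aged library 4. Besides Irf8, these included Csf2rb, the shared beta chain of the IL-3, IL-5 and GM-CSF receptors, at 145 ± 30.3 CPM in aged MPP and 94.7 ± 5.94 CPM in young MPP (log2 change 0.62 ± 0.15; adjusted p = 0.00892). Calr, an ER chaperone on this list too, was at 872 ± 144 CPM in aged MPP and 603 ± 129 CPM in young MPP with overlapping values (adjusted p = 0.00431), and lost the call when only the MPP libraries were fitted (adjusted p = 0.0711, range over alternatives 0.0002 to 0.0711). Fcgr2b, an inhibitory Fc receptor, averaged 42.6 ± 20.7 CPM in aged MPP and 15.2 ± 2.44 CPM in young MPP (adjusted p = 0.0203), and lost the call without aged library 4 or without young library 2 or 3 (adjusted p = 0.107, 0.0695 and 0.0563, range over all alternatives 0.00169 to 0.398). Granule genes varied within each age: Mpo averaged 3155 ± 1319 CPM in aged MPP and 1593 ± 993 CPM in young MPP (adjusted p = 0.685). Of 15 granulocyte markers none was called by edgeR, with 2 at an unadjusted p under 0.05 and 1 called by limma-voom. Over all 14205 tested genes, 3380 had an unadjusted p under 0.05 in edgeR.

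Of 31 lymphoid priming genes 4 rose and 1 fell, with a median log2 change of -0.02. In limma-voom 4 rose and 6 fell, and without the 3 libraries that stood apart none rose and 1 fell. Cd79b, a chain of the B cell receptor, averaged 47.9 ± 16.4 CPM in aged MPP and 26.8 ± 5.84 CPM in young MPP with overlapping values (adjusted p = 0.00734), and lost the call in the fit of the MPP libraries alone (adjusted p = 0.064, range over alternatives 0.0014 to 0.44). Ikzf3, which encodes Aiolos, was at 16.2, 47.8, 13.5 and 69.5 CPM in aged MPP and at 0, 1.32, 1.10 and 1.20 CPM in young MPP (adjusted p = 0.01). Gimap1, a GTPase of lymphocyte survival, was the gene that fell, with 45.6 ± 5.10 CPM in aged MPP and 61.2 ± 7.26 CPM in young MPP (log2 change -0.42 ± 0.11; adjusted p = 0.0125). It lost the call without aged library 3 or young library 3 (adjusted p = 0.0577 and 0.0563), and without young library 3 the list stood at 3 higher and 0 lower. Dntt, the terminal transferase of early lymphoid progenitors, was at 394 ± 118 CPM in aged MPP and 259 ± 55.6 CPM in young MPP and did not pass (adjusted p = 0.217).

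Of 22 erythroid priming genes none rose and 3 fell, with a median log2 change of -0.54. Car2, carbonic anhydrase, was at 305, 441, 386 and 366 CPM in aged MPP and at 574, 502, 564 and 635 CPM in young MPP (log2 change -0.60 ± 0.10; adjusted p = 0.000391). Tal1, a factor that specifies blood and erythroid fate, averaged 86.3 ± 12.9 CPM in aged MPP and 122 ± 12.1 CPM in young MPP (log2 change -0.50 ± 0.10; adjusted p = 0.001). Zfpm1, the GATA1 cofactor FOG1, averaged 65.8 ± 10.4 CPM in aged MPP and 98.5 ± 12.1 CPM in young MPP (log2 change -0.58 ± 0.12; adjusted p = 0.00164). The ages did not overlap in these 3 genes. Slc14a1, a urea transporter, went the other way without passing, at 61.4 ± 7.98 CPM in aged MPP and 47.3 ± 11.4 CPM in young MPP (log2 change 0.38 ± 0.17; adjusted p = 0.171; 0.0341 without young library 4). The 10 hemoglobin genes of the table held 9 counts in all libraries together.

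Of 81 cytosolic ribosomal protein genes 12 rose and none fell, and 76 had a positive log2 change, with a median of 0.34. Rps25 averaged 766 ± 88.4 CPM in aged MPP and 534 ± 42.4 CPM in young MPP (log2 change 0.52 ± 0.10; adjusted p = 0.00102), and Rps24 averaged 380 ± 20.7 CPM in aged MPP and 285 ± 10.6 CPM in young MPP (0.41 ± 0.09; adjusted p = 0.00365). Rpl10 and Rpl19 had log2 changes of 0.45 and 0.35, and Rpl19 lost the call without young library 2 (adjusted p = 0.06, range over alternatives 0.00206 to 0.379). Without that library 5 genes of the list rose, without aged library 3 it was 19, and without the 3 libraries that stood apart it was 0. Ribosomal protein and MHC genes have near-identical copies in the genome, and how reads shared by copies were counted is not given in the sources used here. Interferon response genes split, with 7 of 55 higher and 8 lower (median log2 change -0.12). Those of smallest p were higher: Ly6e at 563 ± 124 CPM in aged MPP and 368 ± 20.1 CPM in young MPP (adjusted p = 0.000812), and the immunoproteasome subunit Psmb8 at 174 ± 24.9 CPM in aged MPP and 121 ± 7.81 CPM in young MPP. The exonuclease Isg20 averaged 30.0 ± 6.11 CPM in aged MPP and 17.5 ± 1.97 CPM in young MPP, and the GTPase Ifi47 averaged 108 ± 16.9 CPM in aged MPP and 77.6 ± 4.15 CPM in young MPP. The lower ones included the antiviral sensor genes Ifih1, Oas1a and Oas3. Ifi47 lost the call without aged library 4 (adjusted p = 0.054, range over alternatives 0.00198 to 0.334), and the list stood at 4 higher and 3 lower without aged library 2, 5 and 3 without aged library 4, 4 and 1 without young library 2, and 5 and 4 without young library 3.

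Genes of S phase, of G2 and M phase and of replication histones gave no calls. None of 48 S phase genes, 44 genes of G2 and M phase or 42 replication histone genes passed in edgeR's test, with median log2 changes of -0.09, -0.16 and 0.07, and none was called by DESeq2, limma-voom or any other alternative. At an unadjusted p under 0.05 there were 0, 0 and 0 genes. In LT-HSC 40 of the 48 S phase genes fell, where 18.9% of all tested genes were called in either direction. Of 16 cell cycle inhibitors and G1 cyclins, Cdkn1a and Ccnd1 rose and Rbl2 fell in MPP, and without the 3 libraries that stood apart 1 rose and none fell. Of 77 genes for oxidative phosphorylation none passed in MPP by edgeR and 2 passed in DESeq2 (median log2 change 0.24). In edgeR 21 of them were higher and 1 lower at an unadjusted p under 0.05. Of all 14205 tested genes 3380 were under that p, in either direction. Among the other lists, 13 of 37 adhesion genes rose and 2 fell (4 and 0 without the 3 libraries), and 7 of 51 cytokine and growth factor receptors rose and 2 fell. Of 24 homeobox genes 1 rose and 5 fell, against 0 and 3 in the fit of the MPP libraries alone and 0 and 0 without the 3 libraries. Of 49 lysosome and autophagy genes 12 rose and none fell, and 5 rose without aged library 4, 6 without young library 2 or 3 and 3 without the 3 libraries.

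The last question was where the age change in MPP differed from that of the stem cells. The difference of age changes passed in 1411 genes against LT-HSC (9.93%), 694 with a higher (4.89%) and 717 with a lower change in MPP (5.05%), and in 66 genes against ST-HSC (0.465%), 40 higher and 26 lower. The count against ST-HSC depended on the tool, with 180 genes in DESeq2 and 34 in limma-voom. Of the MPP calls, 341 were also called in the same direction in LT-HSC, which is 24.5% of the MPP calls and 12.7% of the 2678 LT-HSC calls (18.9% of genes tested). With ST-HSC 357 were shared, which is 25.7% of the MPP calls and 43.4% of the 823 ST-HSC calls (5.79%). In 85 genes MPP and LT-HSC were called in opposite directions. Young LT-HSC library 1 held 682 CPM of Mpo, against at most 3.86 CPM in the other young LT-HSC libraries. Only MPP libraries were left out in the alternatives. The part of this library in the LT-HSC age changes, and in the differences from them, was not tested.

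The ER list set MPP apart from both stem cell populations, with 33 of its 57 genes higher in the difference from LT-HSC and 6 in the difference from ST-HSC, and none lower in either. Txndc5 had a log2 age change of 2.32 in MPP, 0.07 in LT-HSC and 0.06 in ST-HSC, a difference of 2.24 ± 0.28 from LT-HSC (adjusted p = 3e-05) and of 2.26 ± 0.28 from ST-HSC (adjusted p = 0.0008). Xbp1 differed by 2.20 ± 0.24 from LT-HSC and by 1.67 ± 0.24 from ST-HSC (adjusted p = 0.0017 for the second). Plasma cell markers differed in the same direction, 10 of 15 from LT-HSC and 5 of 15 from ST-HSC. Tmem154, a membrane protein of little known function, was at 58.9, 78.0, 40.8 and 90.4 CPM in aged MPP and at 19.3, 17.3, 15.5 and 19.3 CPM in young MPP, with differences of 1.64 ± 0.24 from LT-HSC and 1.97 ± 0.24 from ST-HSC (adjusted p = 0.00018 for the second). Ell2, an elongation factor of antibody-secreting cells, averaged 40.1 ± 19.8 CPM in aged MPP and 12.7 ± 1.49 CPM in young MPP and differed by 1.90 ± 0.32 from ST-HSC (adjusted p = 0.0063). Trib1 rose in LT-HSC too (log2 change 1.56), and its change in MPP was larger by 1.04 ± 0.27 than in LT-HSC and by 1.97 ± 0.28 than in ST-HSC.

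**Figure D5:**
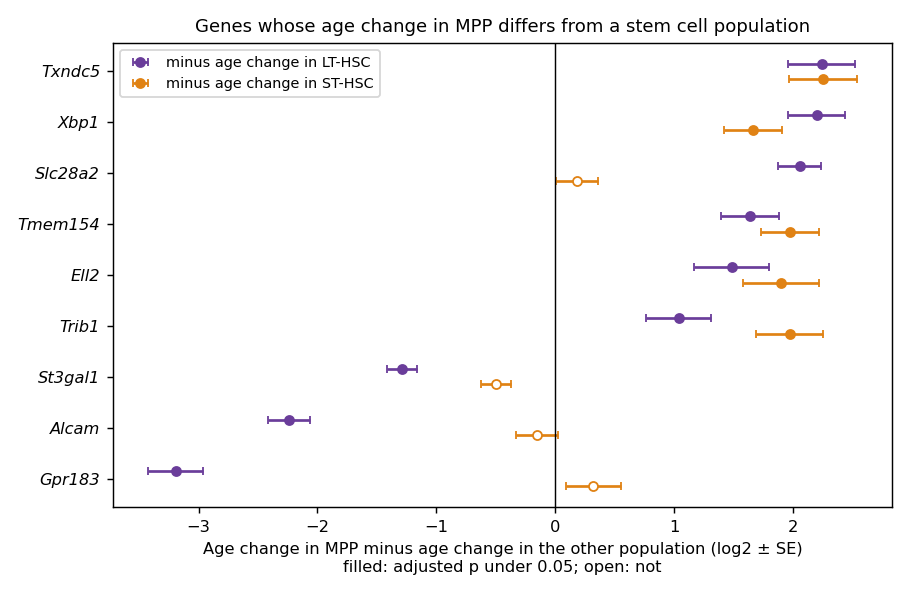
Log2 age change in MPP minus the log2 age change in LT-HSC (purple) or ST-HSC (orange), with SE bars, for genes of smallest p in either difference; filled points passed an adjusted p of 0.05. Txndc5, Xbp1, Tmem154, Ell2 and Trib1 lie right of 0 for both populations, and Slc28a2, St3gal1, Alcam and Gpr183 passed for LT-HSC only.

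Stem cell genes differed from LT-HSC in the other direction. As a list, 10 of 35 fell in MPP while 16 rose and 1 fell in LT-HSC, and the difference was lower in MPP in 19 genes and higher in none. Gpr183, an oxysterol receptor, and Alcam, an adhesion molecule, rose in LT-HSC (log2 changes 3.45 and 2.19) and had log2 changes of 0.25 and -0.05 in MPP that did not pass (adjusted p = 0.368 and 0.87). Their differences were -3.19 ± 0.23 and -2.24 ± 0.18 (adjusted p = 1.5e-09 and 5.9e-09). St3gal1, a sialyltransferase, averaged 206 ± 28.1 CPM in aged MPP and 268 ± 24.5 CPM in young MPP (adjusted p = 0.00637) and rose in LT-HSC (log2 change 0.91). Slc28a2, a nucleoside transporter, averaged 107 ± 12.4 CPM in aged MPP and 72.3 ± 6.55 CPM in young MPP (adjusted p = 0.00362) and fell in LT-HSC (log2 change -1.49). MHC class II genes rose in ST-HSC in 6 of 10. H2-Aa had a log2 age change of 3.68 in MPP, 0.52 in LT-HSC (adjusted p = 0.26) and 1.91 in ST-HSC. The change was larger in MPP than in LT-HSC in 7 genes of the list, for H2-Aa by 3.16 ± 0.44, while its difference from ST-HSC did not pass (1.76 ± 0.44, adjusted p = 0.088).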

How the data were processed

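RNA of sorted cells was copied with "not so random" primers and Klenow fragment and made into Nextera XT libraries, per the labels' protocols. Reads were trimmed with Trim Galore, aligned with HISAT2 to mm10 and counted with featureCounts, per the submitters' processing notes; no source used here gives versions, annotation, strand setting or the handling of shared reads. Without strand, a gene and an overlapping or antisense partner cannot be told apart. The values are raw counts per gene symbol as deposited, in 24421 gene lines, of which 27 carry symbols turned into dates.

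Counts were scaled by TMM, filtered with filterByExpr and fitted with edgeR 4.0.16 (R 4.3.3) by robust quasi-likelihood on all 24 libraries, with 1 mean for each of 6 groups and 18 residual degrees of freedom; the age change in MPP and its differences from the stem cells were contrasts of this fit. P-values were adjusted by Benjamini-Hochberg over all 14205 genes. Shares of counts were compared by two-sided exact permutation. The fit was tested on simulated data. Where a young group had 0 counts the fold is a bound against 3 counts over the group, and with 1 to 3 counts it is a ratio with an exact 95% interval. Intervals and bounds cover counting error only. Libraries of 1 group differed beyond sampling noise, with chi-square over degrees of freedom of 6.26 to 26.8.

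Named were the sort genes, the 12 higher and 12 lower genes of largest log2 change (adjusted p under 0.05, mean of at least 5 CPM, ages not overlapping), in each of the 14 lists described up to 4 genes with the smallest p, and the 6 genes of smallest p in each difference; a few genes that this rule names are not reported here, and others are said to be picked after their values were seen. Members and lists were chosen with earlier results of these data known. Alternatives used DESeq2 1.42.0, limma 3.58.1, other scalings, filters, depths, left-out libraries and a replicate block. Leaving out the 3 libraries that stood apart was chosen after seeing the data.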

Additional observations from a re-analysis of the deposited data

Results flagged for a closer look

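The age change differed between populations, by the test of the difference itself (edgeR, adjusted p under 0.05), in the genes named in the report as follows. The log2 age change in MPP was higher than in LT-HSC by a difference of 5.37 for Irf4, 3.98 for Derl3, 3.86 for Cd74, 3.50 for Ctss, 3.21 for Cd48, 3.17 for H2-Eb1, 3.16 for H2-Aa, 2.73 for Irf8 and 2.53 for Tnfrsf13c. Further differences from LT-HSC were 2.41 for H2-Ab1, 2.24 for Txndc5, 2.20 for Xbp1, 2.11 for Bmpr1a, 2.06 for Slc28a2, 2.00 for Csf2rb, 1.74 for Herpud1, 1.64 for Tmem154 and 1.60 for Creld2. Further differences from LT-HSC were 1.48 for Ell2, 1.20 for Flt3, 1.17 for Cd79b, 1.04 for Trib1, 1.00 for Cd34, 0.95 for H2-DMb1, 0.90 for Hsp90b1, 0.74 for Psmb8 and 0.72 for Calr. Further differences from LT-HSC were 0.63 for Sec61a1, 0.48 for Rps25, 0.44 for Rpl10 and 0.39 for Rpl19. The log2 age change in MPP was lower than in LT-HSC by a difference of -3.24 for Plag1, -3.19 for Gpr183, -2.72 for Fstl1, -2.51 for Ddx4, -2.24 for Alcam, -2.21 for Fgd5, -2.14 for Klf12, -2.10 for Gucy1a3 and -2.08 for Obsl1. Further differences from LT-HSC were -2.07 for Hmga2, -1.91 for Plxdc2, -1.73 for Mycn, -1.53 for Prdm16, -1.29 for St3gal1, -1.18 for Mmrn1, -1.09 for Hlf, -1.05 for Mecom and -0.86 for Btg2. Further differences from LT-HSC were -0.64 for Zfpm1 and -0.63 for Car2. The log2 age change in MPP was higher than in ST-HSC by a difference of 10.84 for Adam19, 7.97 for Cacna1s, 3.15 for Derl3, 2.26 for Txndc5, 1.97 for Tmem154, 1.97 for Trib1, 1.90 for Ell2, 1.67 for Xbp1 and 0.45 for Sec61a1. The log2 age change in MPP was lower than in ST-HSC by a difference of -3.17 for Pla2g4c, -1.78 for Plag1, -1.78 for Fstl1, -1.44 for Klf12, -0.95 for Prdm16, -0.86 for Mmrn1, -0.74 for Hlf and -0.66 for Mecom. The values for Cacna1s and Adam19 rest on few counts in the groups where these genes are near absent. Irf4, Cd48 and Ddx4 were also low in LT-HSC, which limits their differences from it. Their means were 0.80, 0.178 and 0.856 CPM in aged LT-HSC and 1.48, 1.25 and 0.556 CPM in young LT-HSC. Young LT-HSC library 1 held 682 CPM of the myeloid progenitor gene Mpo, against at most 3.86 CPM in the other young LT-HSC libraries. Its part in the differences from LT-HSC was not tested.

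In the next results 1 library lay far from the other 3 of its group, with a gap to the nearest above Dixon's 95% critical value for 4 samples, which chance alone exceeds in about 1 in 20 groups. Both ages of the reported genes and marker lists were checked, so some flags are due to chance alone. Where the other 3 values are 0, any count passes the rule, and that rate does not hold. Pla2g4c was highest in aged MPP at 5.51 CPM in library 2 against 0.691 to 1.31 CPM in the others. Socs3 was lowest in aged MPP at 42.2 CPM in library 3 against 64.4 to 68.3 CPM in the others. Mycn was highest in aged MPP at 29.5 CPM in library 2 against 17.2 to 18.5 CPM in the others. Clec1a was highest in aged MPP at 16.9 CPM in library 3 against 7.45 to 7.80 CPM in the others. Itgb3 was highest in aged MPP at 93.3 CPM in library 4 against 37.1 to 46.3 CPM in the others. Cd34 was highest in aged MPP at 887 CPM in library 1 against 784 to 801 CPM in the others. Mecom was highest in aged MPP at 61.5 CPM in library 3 against 48.5 to 49.3 CPM in the others. The share of monocyte and macrophage markers was highest in aged MPP at 0.157% of counts in library 4 against 0.0757 to 0.0826% of counts in the others. Cacna1h was highest in young MPP at 1.81 CPM in library 4 against 0 CPM in the others. Cacna1s was highest in young MPP at 0.241 CPM in library 4 against 0 CPM in the others. Prlr was highest in young MPP at 0.487 CPM in library 3 against 0 CPM in the others. Clec9a was highest in young MPP at 0.345 CPM in library 1 against 0 CPM in the others. Chst1 was highest in young MPP at 2.29 CPM in library 4 against 0 CPM in the others. Jchain was highest in young MPP at 284 CPM in library 4 against 0.243 to 1.85 CPM in the others. Btg2 was lowest in young MPP at 157 CPM in library 1 against 207 to 215 CPM in the others. Irf8 was highest in young MPP at 96.5 CPM in library 1 against 40.7 to 44.5 CPM in the others. Ikzf3 was lowest in young MPP at 0 CPM in library 1 against 1.10 to 1.32 CPM in the others. Slc14a1 was highest in young MPP at 64.2 CPM in library 4 against 39.8 to 43.0 CPM in the others. Fcgr4 was highest in young MPP at 0.361 CPM in library 4 against 0 CPM in the others. Ccr2 was highest in young MPP at 8.50 CPM in library 1 against 0 to 0.964 CPM in the others. Rps25 was lowest in young MPP at 470 CPM in library 2 against 553 to 558 CPM in the others. Cd74 was lowest in young MPP at 11.3 CPM in library 1 against 55.8 to 57.4 CPM in the others. Fos was lowest in young MPP at 349 CPM in library 1 against 636 to 693 CPM in the others. The share of plasma cell markers was highest in young MPP at 0.0599% of counts in library 4 against 0.0304 to 0.0354% of counts in the others. The share of mast cell, basophil and eosinophil markers was highest in young MPP at 0.0680% of counts in library 3 against 0.0178 to 0.0237% of counts in the others. The share of endothelial and stromal markers was highest in young MPP at 0.0913% of counts in library 1 against 0.0381 to 0.0415% of counts in the others.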

How the results depend on the processing

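Of 84 called genes among the 93 named, 44 kept the call under all 19 alternatives and none of the 93 reversed; 33 lost it without aged library 4 and young libraries 1 and 2 together, an alternative chosen after seeing the data. The count of genes changed with age, 1391, ran from 914 to 1358 with 1 library left out, the lowest without aged library 4, and was 378 without the 3 libraries. It was 1683 in DESeq2, 1329 in limma-voom, 1273 without a count filter, 1310 at equal depth and 1206 in the MPP libraries alone. Upper-quartile scaling gave 1456, with 50.5% higher against 56.4%. The difference from LT-HSC, 1411 genes, ran from 1007 to 1313 with 1 MPP library left out and was 630 without the 3. The difference from ST-HSC, 66 genes, was 180 in DESeq2, 34 in limma-voom, 25 in only the groups compared and 19 without the 3 libraries, and ran from 46 to 93 with 1 left out. The causes were not tested beyond the smaller number of libraries. Of 45 gene lists, 10 kept their counts within 1.5 times under every alternative.

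Replicate numbers did not pair the libraries: same-numbered libraries of different groups had correlations of their deviations from -0.042 to 0.130, and 1 or 2 of 4 correlated best with their own number. With the replicate number as a block, 994 genes changed with age (65.0% higher), 1253 differed from LT-HSC and 44 from ST-HSC, and of the named genes Jchain, Cd79b, Gimap1, Klf4, Ccr2, Herpud1 and Hsp90b1 were not called (Klf4 at an adjusted p of 0.0531). Depth limits genes near 0 in young MPP, whose fold changes are bounds or counting intervals.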
